A study of Mus musculus with 18 samples.

Results

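Sphingosine-1-phosphate (S1P) and lysophosphatidic acid (LPA) are lipid mediators that signal to vessels, and 10 genes of their signalling were followed here. They are the S1P receptors S1pr1, S1pr2 and S1pr3, the LPA receptors Lpar1, Lpar4 and Lpar6, the sphingosine kinases Sphk1 and Sphk2, the S1P exporter Spns2 and the S1P lyase Sgpl1. They were taken by gene symbol from the 19938 genes tested, and each of the 10 had exactly 1 transcript cluster (the set of probes that reads a gene) with its symbol alone. The study measured total RNA of mouse embryonic endothelium, lymphatic (LEC) and blood vascular (BEC), on 18 Affymetrix Mouse Gene 1.0 ST arrays. There were 6 groups of 3 biological replicates, LEC at embryonic days 14.5, 16.5 and 18.5 (written E14.5 and so on) and BEC at the same ages, and each age had 3 litters. The study describes LEC and BEC as matched samples of these litters, but no label ties a replicate number to a litter, so the errors of LEC minus BEC differences take no account of a shared litter. The labels give no strain, genotype or treatment for any group, name the tissue only as embryonic, and describe the isolation only through another publication, not used here. All values are deposited log2 expression values made by RMA (background correction, quantile normalization and probe summary), so that a difference of 1 is a 2-fold difference.

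S1P is made inside cells from sphingosine by sphingosine kinases, leaves endothelial cells through SPNS2, acts on G protein-coupled receptors at the cell surface and is degraded by S1P lyase. In mice, LEC are a known source of the S1P of lymph, which lymphocytes follow out of lymph nodes, and S1PR1 stabilises junctions and restrains sprouting in blood vessels. LPA is produced largely outside cells by autotaxin, and its receptors LPAR4 and LPAR6 are known in mice for roles in the embryonic vasculature.

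The cell type labels were checked against marker genes. Of the LEC markers 7 of 7 measured were higher in LEC over the 3 ages, Prox1 among them by 4.20 ± 0.09 (SE), and of the BEC markers 6 of 6 were lower in LEC, with a difference of -4.14 ± 0.10 for Flt1. Markers of other cells also moved with the groups: 10 of 10 macrophage markers, 8 of 8 mast cell markers and 7 of 7 keratinocyte and epithelial markers were higher in LEC, as were 4 of 6 lymphocyte and leukocyte markers (1 lower). Lower in LEC were 8 of 8 mural cell markers, 2 of 3 erythroid markers and 2 of 4 platelet and megakaryocyte markers (1 higher). Of 7 fibroblast markers 1 was higher and 1 lower. The cell types separated with age in the LEC markers, since 7 of 7 fell in BEC from E14.5 to E18.5 (median -1.75). The median LEC minus BEC difference of the LEC markers was 2.26, 4.14 and 5.09 in order of age. The other endothelial lists did not widen in this way. That median was -3.65, -3.58 and -3.27 for the BEC markers and -1.18, -1.06 and -0.77 for 6 pan-endothelial markers. In LEC 4 of 6 BEC markers rose from E14.5 to E18.5 and 2 fell (median 1.11). The part of these markers in differences that change with age was not tested. Array medians lay between 5.43 and 5.58, the interquartile range averaged 3.48 for the E14.5 arrays, 3.60 for E16.5 and 3.29 for E18.5, and arrays have no read depth, so their number limits the precision. The narrower range of the E18.5 arrays goes with every change to that age given here, and its part was not tested. As a measure of signal near background, the value 4.57 is used, below which 95% of 1207 genes for olfactory, vomeronasal and trace amine receptors fell in their mean over the 18 arrays; all 10 members lay above it in their mean.

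Over the 3 ages together, 3 of the 10 genes were higher in LEC (Sgpl1, Sphk1 and Lpar1), 4 were lower (Lpar4, Lpar6, S1pr3 and S1pr1) and 3 did not pass the test (S1pr2, Sphk2 and Spns2). A gene was called at a limma adjusted p under 0.05, adjusted by Benjamini-Hochberg over all 19938 genes of a comparison. Of all genes, 37.1% were called in this comparison, 18.2% higher and 19.0% lower. The median difference was -0.02 over the members and -0.02 over all genes. The arrays of LEC lay above those of BEC at each of the 3 ages for Sphk1 and Sgpl1 (8.22% of all genes did so) and below them at each age for S1pr1, Lpar4 and Lpar6 (8.05% of all genes). The errors measure the spread between biological replicates, and whether that is a spread between litters is not given by the labels. In bulk RNA of this kind, fewer cells of a type and less RNA per cell cannot be told apart.

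**Figure D1:**
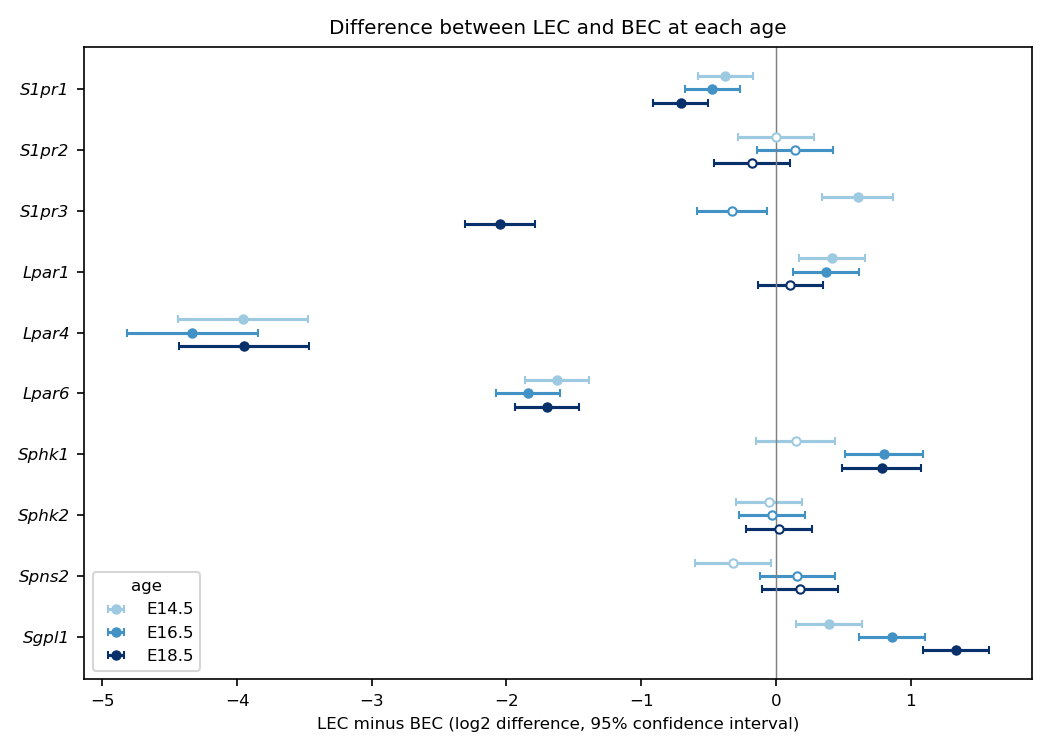
LEC minus BEC difference (log2, horizontal axis) of each of the 10 genes by embryonic day (E14.5, E16.5, E18.5), drawn with limma 95% confidence intervals; filled points passed the test and open points did not. Lpar4 lies near -4 and Lpar6 between -1.84 and -1.62 at every age, while S1pr3 moves from 0.61 at E14.5 to -2.05 at E18.5 and Sgpl1 from 0.39 to 1.34.

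The difference between the vessel types was widest for Lpar4, a receptor for LPA that couples to several G proteins, among them those of the G12/13 family. Lpar4 (chrX:106920625-106933899, GRCm38.p6) read 6.56, 6.31 and 6.01 in LEC at E14.5, against 10.44, 10.03 and 10.30 in BEC. The E16.5 arrays read 5.58, 6.60 and 6.09 in LEC, against 10.43, 10.49 and 10.34 in BEC, and at E18.5 it read 5.64, 6.53 and 5.72 in LEC, against 9.95, 9.79 and 10.01 in BEC. Every LEC array was more than 3 log2 units below every BEC array. The fitted differences were -3.96 ± 0.23, -4.33 ± 0.23 and -3.95 ± 0.23 (SE, n = 3 each) in order of age, that is 15.5-fold to 20.1-fold lower in LEC (limma adjusted p between 3.5e-11 and 2.4e-10). No change of Lpar4 with age passed the test in either cell type, and the age changes differed by 0.01 (95% interval -0.68 to 0.69). In LEC the change from E14.5 to E18.5 was -0.33 (adjusted p = 0.27), but without LEC E18.5 replicate 2, the highest array of its group, it was -0.61 (adjusted p = 0.033). In BEC the change from E16.5 to E18.5 was -0.50 with no overlap of the arrays (adjusted p = 0.1), and it passed the test in a fit to those groups alone (adjusted p = 0.015).

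Lpar6, a related LPA receptor of the same P2Y-like family, followed the same division at a smaller size. Lpar6 (chr14:73237891-73240358) read 8.67, 8.52 and 8.46 in LEC at E14.5, against 10.20, 10.09 and 10.23 in BEC. The E16.5 arrays read 8.43, 8.67 and 8.51 in LEC, against 10.42, 10.40 and 10.30 in BEC, and at E18.5 it read 8.97, 9.18 and 9.19 in LEC, against 10.75, 10.64 and 11.04 in BEC. At each age all LEC arrays were below all BEC arrays, and the fitted differences were -1.62 ± 0.11, -1.84 ± 0.11 and -1.70 ± 0.11 (adjusted p between 2.3e-10 and 2.6e-09). Lpar6 rose in both cell types between E16.5 and E18.5, by 0.57 ± 0.11 in LEC (adjusted p = 0.00075) and by 0.44 ± 0.11 in BEC (adjusted p = 0.0074). Between E14.5 and E18.5 it rose by 0.56 in LEC and by 0.64 in BEC, and these changes differed by -0.08 (95% interval -0.41 to 0.26, adjusted p = 0.85). Of 8 mural cell markers 8 were lower in LEC over the 3 ages. At E14.5 4 of them were lower and 1 higher (median -0.43), and their summed level (log2 of the summed linear values) was 8.85 to 9.03 in LEC and 8.83 to 9.02 in BEC. Of 6 pan-endothelial markers 4 were also lower in LEC over the 3 ages and 2 were not called (median -1.06). From E14.5 to E18.5, 5 of these 6 rose in LEC and 4 in BEC, and the others were not called. The part of the mural and pan-endothelial markers in the Lpar4 and Lpar6 values was not tested.

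Over the 18 arrays, which share the structure of the 6 groups, the correlation between Lpar4 and Lpar6 was 0.93. The genes most like Lpar4 were Tmem255a (r = 0.993) and the protocadherins Pcdh1 and Pcdh17 (r = 0.992 each), and those most like Lpar6 were Prnp, the prion protein gene (r = 0.989), Tcim and Nxpe4 (r = 0.988 each). Since these receptors had the largest differences among the members in the mean over the ages (at E18.5 S1pr3, at -2.05, lay beyond Lpar6), the 250 bases before their RefSeq start sites (GRCm38.p6) are shown, 5′ to 3′ on the gene's strand, chrX:106920375-106920624 for Lpar4 and chr14:73237641-73237890 for Lpar6. Capitals mark matches to a GATA motif (AGATAA or its reverse complement TTATCT) or to the core of a KLF motif (CACCC or GGGTG), searched on both strands because the series concerns an enhancer bound by GATA2 and because KLF2 is known to act on S1pr1 in T cells.
Lpar4: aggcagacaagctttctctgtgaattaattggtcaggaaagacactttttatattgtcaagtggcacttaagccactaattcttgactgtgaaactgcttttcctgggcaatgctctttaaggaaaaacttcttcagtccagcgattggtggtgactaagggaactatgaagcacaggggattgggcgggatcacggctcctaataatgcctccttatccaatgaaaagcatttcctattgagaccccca
Lpar6: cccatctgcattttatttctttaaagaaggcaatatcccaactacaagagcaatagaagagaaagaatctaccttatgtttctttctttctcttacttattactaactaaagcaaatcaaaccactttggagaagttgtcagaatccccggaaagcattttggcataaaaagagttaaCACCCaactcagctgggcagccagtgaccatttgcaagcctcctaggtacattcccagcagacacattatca
The Lpar4 window held no match and the Lpar6 window 1 KLF match. Among all 32851 windows of this length, 9.99% held a GATA match and 52% a KLF match, and a match is a description of these letters only.

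Lpar1, the LPA receptor with the widest tissue distribution, ran the other way by a small amount. Lpar1 (chr4:58435252-58554027) read 6.24, 6.23 and 6.34 in LEC at E14.5, against 5.97, 5.91 and 5.68 in BEC. It read 6.12, 5.81 and 6.10 in LEC at E16.5, against 5.51, 5.70 and 5.71 in BEC, and at E18.5 the groups overlapped, with 5.78, 6.12 and 5.93 in LEC, against 5.89, 5.76 and 5.86 in BEC. The mean difference over the ages was 0.30 ± 0.07 (limma adjusted p = 0.0013), from 0.42 at E14.5 (adjusted p = 0.015) and 0.37 at E16.5 (adjusted p = 0.023) to 0.11 at E18.5 (adjusted p = 0.53). The call at E14.5 was lost without BEC E14.5 replicate 3 (0.33, adjusted p = 0.11) or LEC E14.5 replicate 3 (0.38, adjusted p = 0.068). The E16.5 call went when BEC E16.5 replicate 1 (0.31, adjusted p = 0.11), LEC E16.5 replicate 1 (0.32, adjusted p = 0.1) or LEC E16.5 replicate 3 (0.32, adjusted p = 0.093) was left out. Lpar1 fell by 0.33 in LEC between E14.5 and E18.5 (adjusted p = 0.03), a call lost without any of the 3 LEC E14.5 arrays or without LEC E18.5 replicate 1 or 3 (-0.35 to -0.24, adjusted p 0.053 to 0.12) and with array weights (adjusted p = 0.062) or a fit to those groups alone (adjusted p = 0.068), and in BEC the change was -0.02. Lpar1 was most like Ikzf2 (r = 0.871), Trpc6 (r = 0.851) and Cdh10 (r = 0.842).

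**Figure D2:**
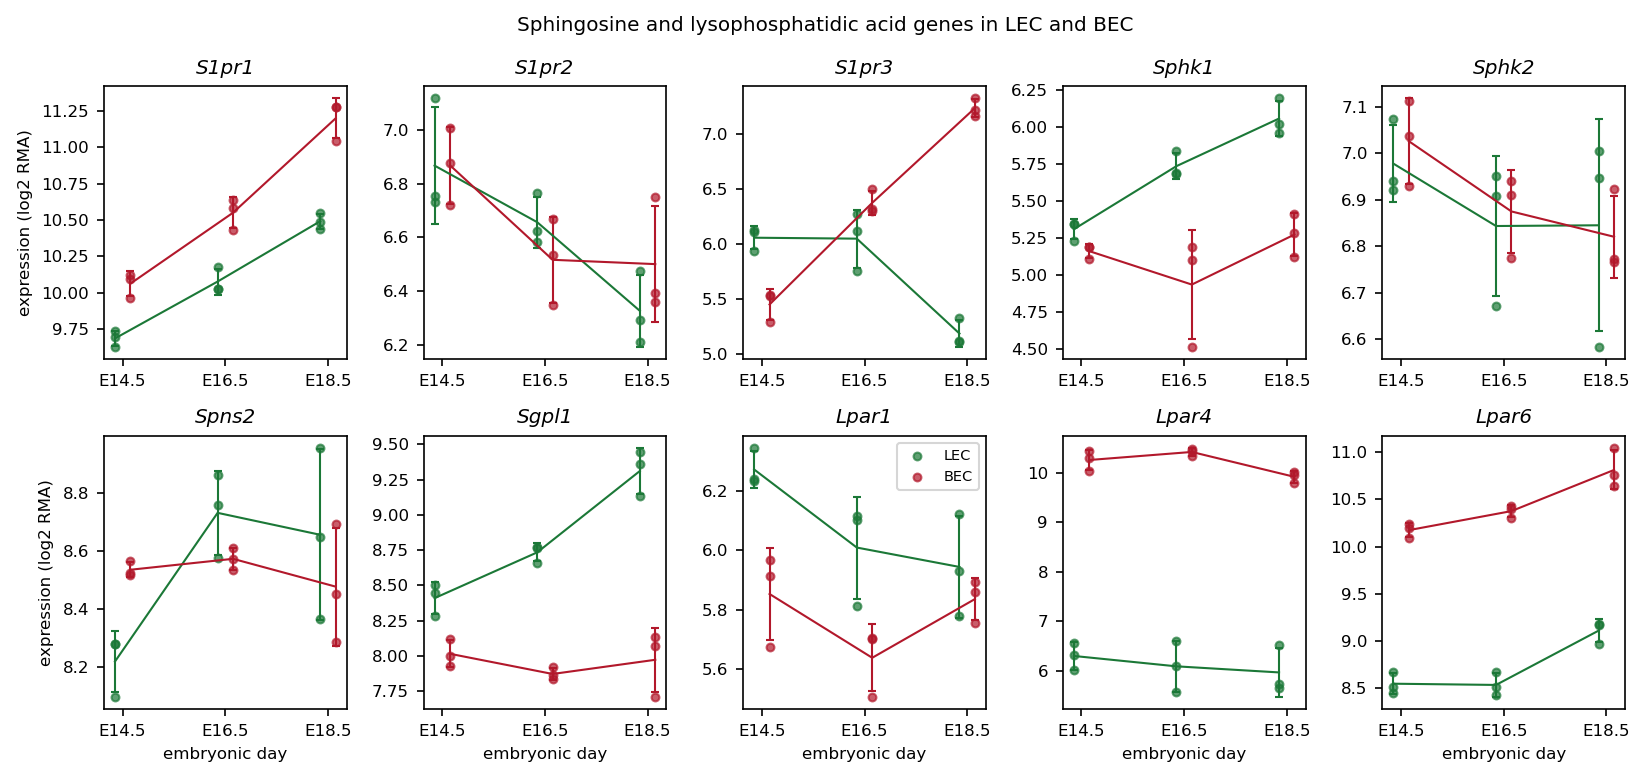
Deposited log2 RMA values of the 10 genes on every array (points) with group means joined by lines and SD as bars (n = 3), by embryonic day on the horizontal axis, LEC in green and BEC in red. S1pr1 lies higher at each later age in both cell types, Sgpl1 separates with age as LEC values climb, and the lines of S1pr3 cross. For Sphk1 the LEC minus BEC difference is 0.15, 0.80 and 0.79 in order of age, and the difference between its age changes was not called.

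S1pr1, the Gi-coupled S1P receptor of endothelium, was lower in LEC at every age and rose with age in both cell types. S1pr1 (chr3:115710433-115715055) read 9.73, 9.69 and 9.63 in LEC at E14.5, against 10.12, 9.96 and 10.10 in BEC. The E16.5 arrays read 10.02, 10.03 and 10.18 in LEC, against 10.64, 10.58 and 10.43 in BEC, and at E18.5 it read 10.49, 10.55 and 10.44 in LEC, against 11.28, 11.04 and 11.28 in BEC. The groups did not overlap within an age, but LEC at E18.5 overlapped BEC at E16.5, and LEC at E16.5 overlapped BEC at E14.5. The order of the group means was BEC E18.5, then BEC E16.5 and LEC E18.5 together, then LEC E16.5 and BEC E14.5 together, and LEC E14.5 lowest. Of 6 pan-endothelial markers 4 were also lower in LEC over the 3 ages, and their summed level was 12.53 to 13.24 in LEC and 13.60 to 14.03 in BEC; their part in the lower S1pr1 was not tested. The fitted differences between LEC and BEC were -0.38 ± 0.10 at E14.5 (adjusted p = 0.0094), -0.47 at E16.5 (adjusted p = 0.00096), then -0.71 at E18.5 (adjusted p = 1.2e-05).

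From E14.5 to E18.5 S1pr1 rose by 0.81 ± 0.10 in LEC (limma adjusted p = 2.2e-06) and by 1.14 ± 0.10 in BEC (adjusted p = 7.2e-08). The difference between these rises, -0.33 ± 0.14 (95% interval -0.62 to -0.04), did not pass the test over all genes (adjusted p = 0.17). Each step of the rise was called in each cell type. The LEC step from E14.5 to E16.5 (0.39, adjusted p = 0.011) lost its call when LEC replicate 3 of E14.5 (0.36, adjusted p = 0.053) or LEC replicate 3 of E16.5 (0.34, adjusted p = 0.054) was left out. Pan-endothelial markers moved with it, since 5 of 6 were higher at E18.5 than at E14.5 in LEC and 4 of 6 in BEC, and their summed level was 13.00 to 13.24 at E18.5 and 12.53 to 12.57 at E14.5 in LEC, and 13.97 to 14.03 at E18.5 and 13.60 to 13.65 at E14.5 in BEC. Their part in the result was not tested. Over the 18 arrays S1pr1 was most like Fryl (r = 0.983), the transcription factor gene Stat3 (r = 0.977) and Stom, which encodes stomatin (r = 0.972).

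S1pr2, whose receptor acts mainly through G12/13, showed no difference between the cell types that passed the test. S1pr2 (chr9:20965952-20976793) lay between 6.21 and 7.12 in LEC and between 6.35 and 7.01 in BEC over all ages, and the groups overlapped at each age. The mean difference was -0.01 ± 0.08 (95% interval -0.17 to 0.15, limma adjusted p = 0.93). It fell with age in LEC, with 6.47, 6.29 and 6.21 at E18.5, against 6.75, 7.12 and 6.73 at E14.5 (-0.54, adjusted p = 0.0032). In BEC the difference was -0.37 (adjusted p = 0.046), with 6.75, 6.36 and 6.39 at E18.5, against 7.01, 6.88 and 6.72 at E14.5, and the E18.5 and E14.5 arrays overlapped. That BEC call was lost without any of 8 single arrays, namely BEC E14.5 replicate 1 or 2, BEC E16.5 replicate 3, BEC E18.5 replicate 2 or 3, LEC replicate 1 of E14.5, or LEC replicates 1 or 3 of E16.5 (-0.37 to -0.30, adjusted p 0.052 to 0.17), with array weights (adjusted p = 0.073) and in a fit to those groups alone (adjusted p = 0.077). The 2 age changes differed by -0.17 (adjusted p = 0.68), and the genes most like S1pr2 were Kcna3 (r = 0.850), Aagab (r = 0.849) and Sec61b (r = 0.837).

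S1pr3, the S1P receptor coupled to Gi, Gq and G12/13 and known from vascular smooth muscle as well as endothelium, changed in opposite directions in the 2 cell types. S1pr3 (chr13:51408618-51422797) read 5.94, 6.11 and 6.13 in LEC at E14.5, against 5.54, 5.29 and 5.52 in BEC. At E16.5 it read 6.27, 6.12 and 5.76 in LEC, against 6.30, 6.50 and 6.32 in BEC, and at E18.5 it read 5.12, 5.11 and 5.33 in LEC, against 7.22, 7.32 and 7.16 in BEC. LEC arrays were all above BEC arrays at E14.5 and all below them at E16.5 and E18.5. The difference was 0.61 ± 0.12 at E14.5 (limma adjusted p = 0.0014), -0.33 at E16.5 (adjusted p = 0.066) and -2.05 ± 0.12 at E18.5 (adjusted p = 2e-10). The difference at E16.5 passed the test without LEC E16.5 replicate 1 (-0.44, adjusted p = 0.022). The mean over the ages was -0.59, and without the E18.5 arrays it was 0.14 (adjusted p = 0.27).

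In LEC the change of S1pr3 was -0.01 from E14.5 to E16.5, and it fell by 0.86 from E16.5 to E18.5 (limma adjusted p = 4.7e-05). In BEC it rose at both steps, by 0.92 (adjusted p = 0.00014) and 0.86 (adjusted p = 6.8e-05), and by 1.78 ± 0.12 from E14.5 to E18.5 (adjusted p = 6.2e-09). The age changes of LEC and BEC differed by -2.65 ± 0.18 (adjusted p = 2.2e-08). Over the 18 arrays S1pr3 was most like Pdgfrb (r = 0.930), the receptor gene of pericytes and other mural cells, Adipor2 (r = 0.913) and Psmb8 (r = 0.896). Pdgfrb fell by 1.51 ± 0.13 in LEC and rose by 2.22 ± 0.13 in BEC from E14.5 to E18.5.

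The mural cell markers were set beside S1pr3 because Pdgfrb belongs to that list. Their summed level in LEC was 8.85 to 9.03 at E14.5, 9.04 to 9.13 at E16.5 and 8.87 to 9.36 at E18.5, and between the first and the last age 3 of 8 markers rose and 2 fell. In BEC it was 8.83 to 9.02, 9.99 to 10.24 and 11.57 to 11.95 at the same ages, and 8 of 8 markers were higher at E18.5 than at E14.5 (median 2.13). Rgs5 was below 4.57 on all LEC arrays of E14.5, and no other mural marker was below that value on all arrays of a group. At E14.5, where S1pr3 was higher in LEC, 4 of 8 mural markers were lower in LEC and 1 was higher (median -0.43). Between E16.5 and E18.5 in LEC, where S1pr3 fell, 4 rose and 1 fell (median 0.38). The part of the mural cell markers in the S1pr3 values was not tested.

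**Figure D3:**
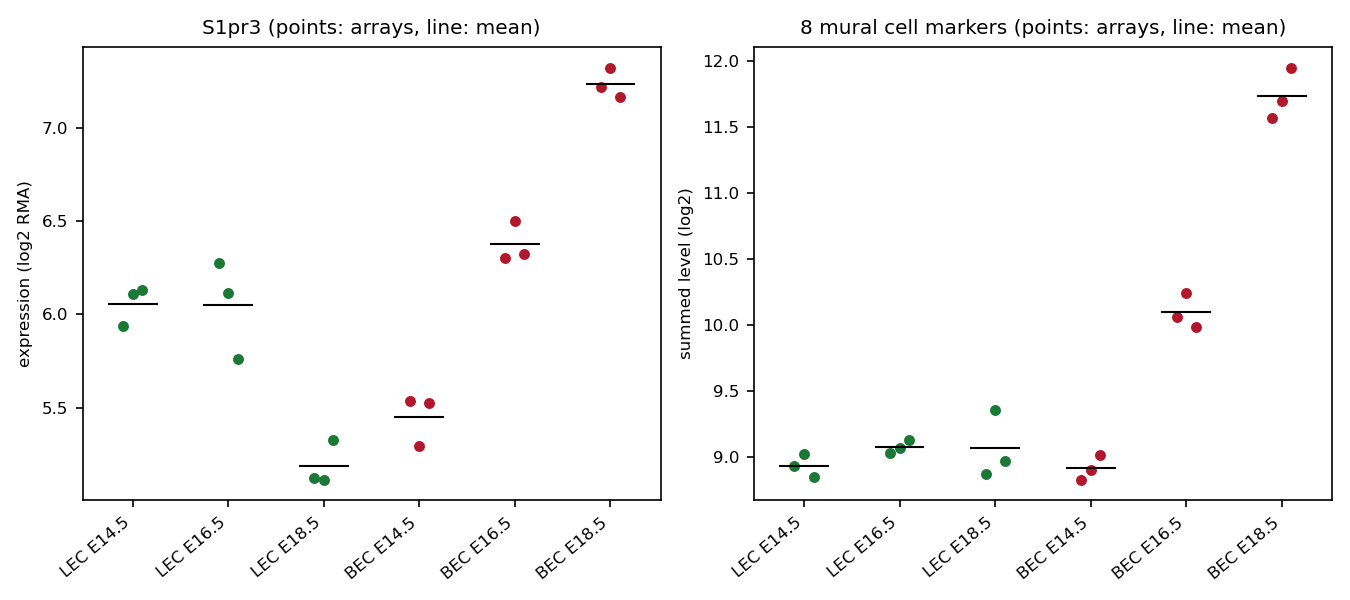
S1pr3 (left, log2 RMA value) and the summed level of 8 mural cell markers (right, log2) on every array (points), with group means (lines), for LEC and BEC at each age. In LEC the mural sums stay between 8.85 and 9.36 while S1pr3 lies at 5.11 to 5.33 at E18.5, and in BEC both panels climb with age.

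The 250 bases before the start of S1pr3 (chr13:51408368-51408617, + strand) are shown because this receptor reversed its order between the cell types. Those before a RefSeq start of Spns2 (chr11:72475028-72475277, − strand) are shown because its single window held a GATA match. That Spns2 start lies inside the gene (chr11:72451638-72489976), so its window is not at the outer 5′ end of the gene. Capitals are as above.
S1pr3: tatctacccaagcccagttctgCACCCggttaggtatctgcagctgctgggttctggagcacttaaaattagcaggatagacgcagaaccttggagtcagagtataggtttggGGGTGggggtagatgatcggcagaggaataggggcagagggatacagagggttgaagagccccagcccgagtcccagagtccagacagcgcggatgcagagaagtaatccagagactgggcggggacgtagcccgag
Spns2: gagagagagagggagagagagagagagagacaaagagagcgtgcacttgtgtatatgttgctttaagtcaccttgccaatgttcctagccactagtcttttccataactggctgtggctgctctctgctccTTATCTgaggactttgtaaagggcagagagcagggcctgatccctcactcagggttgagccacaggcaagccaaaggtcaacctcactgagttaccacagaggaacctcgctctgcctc
The S1pr3 window held 2 KLF matches and no GATA match, and the Spns2 window 1 GATA match and no KLF match. In all, 16 windows of 9 members were searched, and S1pr1 was not among them. A GATA match was in 3 of the 16 windows (9.99% of all windows), that of Spns2 and 2 overlapping windows of Sphk1. A KLF match was in 11 (52% of all windows), among them overlapping windows of Sphk1 and of Lpar1.

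Of the 2 sphingosine kinases, which phosphorylate sphingosine to S1P, Sphk1 was higher in LEC at the later ages and Sphk2 showed no difference that passed the test. Sphk1 (chr11:116530836-116536675) read 5.23, 5.35 and 5.35 in LEC at E14.5, against 5.19, 5.11 and 5.19 in BEC. At E16.5 it read 5.68, 5.84 and 5.69 in LEC, against 5.19, 4.51 and 5.10 in BEC, and at E18.5 it read 6.02, 5.96 and 6.19 in LEC, against 5.12, 5.41 and 5.28 in BEC. LEC arrays were above BEC arrays at each age, narrowly at E14.5, and BEC E16.5 replicate 2 was below the 4.57 that marks signal near background. The difference was 0.15 ± 0.14 at E14.5 (limma adjusted p = 0.61), 0.80 at E16.5 (adjusted p = 0.00017) and 0.79 at E18.5 (adjusted p = 0.0002).

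Sphk1 rose from E14.5 to E18.5 in LEC by 0.75 (limma adjusted p = 0.00024), and in BEC the change was 0.11 (adjusted p = 0.6). The difference between the age changes, 0.64 ± 0.20, narrowly missed the threshold (adjusted p = 0.051) and passed it when any of 3 arrays was left out, BEC E16.5 replicate 1 (adjusted p = 0.04), BEC E16.5 replicate 2 (adjusted p = 0.0077) or BEC E18.5 replicate 2 (0.71, adjusted p = 0.047). The LEC step from E14.5 to E16.5 (0.43, adjusted p = 0.048) was lost without any LEC array of those ages, any BEC array of E14.5, BEC E18.5 replicate 3 or LEC E18.5 replicate 1 (0.38 to 0.46, adjusted p 0.05 to 0.15), and with a trended, robust eBayes (adjusted p = 0.054). Sphk2 (chr7:45709463-45718002), the largely nuclear and mitochondrial kinase, stayed between 6.58 and 7.07 in LEC and between 6.77 and 7.11 in BEC, with overlap at each age. Its mean difference was -0.02 ± 0.07 (95% interval -0.16 to 0.12, adjusted p = 0.87), and no change with age was called. It was most like Gm10505 (r = 0.823), Mief2 (r = 0.784) and Ankrd45 (r = 0.783).

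Spns2, the transporter that releases S1P from endothelial cells, showed no difference over the ages that passed the test (0.01 ± 0.08, 95% interval -0.15 to 0.17, limma adjusted p = 0.96). Spns2 (chr11:72451638-72489976) read 8.10, 8.28 and 8.28 in LEC at E14.5, against 8.52, 8.52 and 8.56 in BEC. At E16.5 the values were 8.76, 8.57 and 8.86 in LEC, against 8.57, 8.54 and 8.61 in BEC, and at E18.5 it read 8.65, 8.36 and 8.95 in LEC, against 8.29, 8.69 and 8.45 in BEC. LEC arrays were below BEC arrays at E14.5 and overlapped them later, and the difference at E14.5 was -0.32 ± 0.13 (adjusted p = 0.13). In a fit to the E14.5 arrays alone that difference passed the test (adjusted p = 0.028).

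Between E14.5 and E16.5 Spns2 rose in LEC by 0.51 (limma adjusted p = 0.014), and in BEC the change was 0.04. That call depended on LEC replicate 1 of E14.5 (0.45 without it, adjusted p = 0.069), and on LEC replicate 1 (0.50, adjusted p = 0.052) and replicate 3 (0.45, adjusted p = 0.064) of E16.5. Between E14.5 and E18.5 it rose in LEC by 0.44 (adjusted p = 0.013), a call lost without LEC E14.5 replicate 1 (0.38, adjusted p = 0.062) or LEC E18.5 replicate 3 (0.29, adjusted p = 0.089), or in a fit to those groups alone (adjusted p = 0.053). The age changes of LEC and BEC differed by 0.50 ± 0.19 (adjusted p = 0.12), and by 0.64 without LEC E18.5 replicate 2 (adjusted p = 0.028). The genes most like Spns2 were Gja4, a connexin gene of arterial and lymphatic valve endothelium (r = 0.804), Itga8 (r = 0.801) and Itm2c (r = 0.776).

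Sgpl1, the lyase that irreversibly cleaves S1P, was higher in LEC at every age and the gap widened. Sgpl1 (chr10:61098642-61147684) read 8.29, 8.44 and 8.50 in LEC at E14.5, against 8.120, 7.931 and 7.997 in BEC. At E16.5 it read 8.77, 8.66 and 8.77 in LEC, against 7.84, 7.86 and 7.92 in BEC, and at E18.5 it read 9.36, 9.44 and 9.13 in LEC, against 8.07, 7.71 and 8.14 in BEC. No LEC array of any age was below a BEC array of any age. The difference was 0.39 ± 0.12 at E14.5 (limma adjusted p = 0.023), 0.86 at E16.5 (adjusted p = 9.6e-06) and 1.34 at E18.5 (adjusted p = 2.8e-08). The E14.5 call was lost without BEC E14.5 replicate 2 (0.35, adjusted p = 0.1) or 3 (0.38, adjusted p = 0.073), or without LEC E14.5 replicate 2 (0.38, adjusted p = 0.08) or 3 (0.35, adjusted p = 0.1).

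Between E14.5 and E18.5 Sgpl1 rose in LEC by 0.90 ± 0.12 (limma adjusted p = 4.9e-06), in BEC the change was -0.04 (adjusted p = 0.83), and the changes differed by 0.94 ± 0.16 (adjusted p = 0.00085). Sgpl1 and Sphk1 correlated at 0.86 over the 18 arrays. The genes most like Sgpl1 were the transcription factor gene Foxp2 (r = 0.975), Padi2 (r = 0.974) and Ppip5k2 (r = 0.972), and those most like Sphk1 were Ackr2, a chemokine scavenging receptor of lymphatic endothelium (r = 0.946), and the desmosomal and cornified envelope genes Pkp1 (r = 0.943) and Ppl (r = 0.935).

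Markers of other cells also rose in LEC with age, though not all at the same steps. From E14.5 to E16.5 in LEC, 8 of 10 macrophage and 3 of 8 mast cell markers rose, and 0 of 7 keratinocyte and epithelial markers did. From E16.5 to E18.5 in LEC, 5 macrophage markers rose and 1 fell, and 1 mast cell marker rose and 2 fell. At that step 7 of 7 keratinocyte and epithelial markers rose in LEC and 7 of 7 in BEC. The summed level of 10 macrophage markers in LEC was 10.81 to 10.87 at E14.5, 11.36 to 12.43 at E16.5 and 12.62 to 13.27 at E18.5, and in BEC it was 8.94 to 9.17, 8.56 to 8.83 and 8.86 to 9.32. That of 7 keratinocyte and epithelial markers in LEC was 8.58 to 8.81, 8.23 to 9.55 and 10.80 to 11.55, and in BEC it was 7.81 to 8.04, 7.73 to 8.02 and 9.07 to 9.70. Adgre1, Fcgr1, Fcgr3 and C1qb of the macrophage list and Epcam of the epithelial list were below 4.57 on all arrays of at least 1 BEC group, and none was on all arrays of a LEC group. Mast cell markers summed to 13.53 to 14.05, 14.58 to 14.65 and 14.21 to 14.57 in LEC and to 11.42 to 12.31, 12.43 to 12.65 and 10.19 to 12.07 in BEC, with Fcer1a below 4.57 on all arrays of 5 of the 6 groups and Ms4a2 in BEC at E18.5. Platelet and megakaryocyte markers, 4 genes, summed to 7.37 to 7.50, 8.21 to 9.25 and 8.92 to 9.45 in LEC and to 8.25 to 8.33, 7.58 to 7.95 and 7.35 to 7.44 in BEC, and the age change was higher in LEC for 3 of 4 (median 1.60). The LEC markers summed to 13.69 to 13.78, 14.13 to 14.17 and 14.16 to 14.41 in LEC and to 11.40 to 11.66, 10.55 to 10.63 and 9.97 to 10.09 in BEC. The part of these markers in the higher Sphk1 and Sgpl1 of LEC was not tested.

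Counted per comparison, 3 members were higher and 3 lower in LEC than in BEC at E14.5, where 16.5% of all genes were called, 8.60% higher and 7.94% lower. At E16.5 again 3 were higher and 3 lower, where 25.2% of all genes were called, 13.0% higher and 12.2% lower. At E18.5 2 were higher and 4 lower, where 30.4% were called, 14.6% higher and 15.9% lower. In LEC 5 members were higher and 3 lower at E18.5 than at E14.5, where 40.9% of all genes were called, 19.7% higher and 21.2% lower. In BEC 3 were higher (S1pr1, S1pr3 and Lpar6) and 1 lower (S1pr2), where 30.6% were called, 13.3% higher and 17.3% lower. For the step to E16.5, 3 rose and 0 fell in LEC (13.8% of all genes called, 8.07% higher and 5.72% lower), and 2 rose and 0 fell in BEC (9.76%, with 5.10% higher and 4.66% lower). For the step to E18.5, 3 rose and 1 fell in LEC (34.4%, with 15.9% higher and 18.5% lower), and 3 rose and 0 fell in BEC (32.3%, with 15.8% higher and 16.4% lower). The age changes of LEC and BEC differed past the test for 2 members, with a lower change in LEC for S1pr3 and a higher one for Sgpl1, against 8.85% of all genes (5.02% higher and 3.83% lower). Comparisons of age within a cell type share arrays at their common ages, and LEC minus BEC comparisons share arrays with both. Relative to the deposited scale, giving all arrays 1 common median moved the median of all genes from E16.5 to E18.5 in LEC to -0.07, against 0.05, and with it S1pr2 also fell at that step (-0.45, adjusted p = 0.012), against -0.33 (adjusted p = 0.066) as deposited. The share of higher among called genes was then 26.6% at that step in LEC (46.3% as deposited), 30.5% at the same step in BEC (49.1%), 66.4% at the earlier step in BEC (52.2%) and 37.6% between E14.5 and E18.5 in LEC (48.2%).

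The other genes of the pathway were counted from lists chosen by function. The median LEC minus BEC difference over the 3 ages was 0.33 for the other lysophospholipid receptors, 0.07 for S1P turnover and transport, 0.23 for ceramide and sphingolipid synthesis, 0.27 for LPA production and 0.63 for regulators of S1PR1, beside -0.02 for all genes. The counts over these lists are for the same comparison unless an age is given, in which 37.1% of all genes were called, 18.2% higher and 19.0% lower. Of 7 other measured lysophospholipid receptors, 4 were higher in LEC over the 3 ages and 1 lower. Among the higher ones Gpr34 read 2.52 to 3.94 over all arrays, below 4.57 throughout. Lpar2, also higher, read 4.44 to 5.62, with some BEC arrays of E18.5 below 4.57. The count and the median of this list thus rest in part on signal near background. Gpr174, a lysophosphatidylserine receptor of lymphocytes, was higher by 1.73 ± 0.11 (limma adjusted p = 1.5e-10), with LEC arrays between 4.41 and 5.78 and BEC arrays between 2.82 and 3.90, all below 4.57, so that the size of the difference is uncertain. P2ry10, a related receptor, was higher in LEC by 2.09 ± 0.21 at E16.5, with 5.07, 5.11 and 4.61 in LEC, against 2.79, 3.02 and 2.73 in BEC, which were likewise below 4.57. The 6 lymphocyte and leukocyte markers summed, in order of age, to 9.97 to 10.28, 10.19 to 10.29 and 9.10 to 9.79 in LEC, and to 8.23 to 8.56, 7.94 to 8.15 and 7.21 to 7.45 in BEC. Of these markers Cd79a was below 4.57 on all arrays of every group, Rag1 in all groups but LEC at E16.5, and Il7r in the 3 BEC groups. Their part in the higher Gpr174 and P2ry10 was not tested.

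Enzymes that remove or recycle S1P and LPA differed in both directions, with 4 of 13 genes of S1P turnover and transport higher in LEC, 5 lower and 4 not called. The lipid phosphate phosphatases, which dephosphorylate S1P and LPA outside the cell, were lower in LEC. Plpp3 had a LEC minus BEC difference of -1.98 ± 0.09 (limma adjusted p = 7.3e-13), and at E18.5 it read 7.91, 8.72 and 8.40 in LEC, against 10.41, 10.58 and 10.89 in BEC. Plpp1 had a difference of -1.44 ± 0.10 at E14.5 (adjusted p = 3.1e-09), with 6.72, 6.66 and 6.58 in LEC, against 8.02, 8.14 and 8.11 in BEC. At these ages the groups did not overlap for either gene. From E14.5 to E18.5 Plpp1 rose by 1.71 ± 0.10 in LEC and 1.25 ± 0.10 in BEC, while Plpp2 fell by 1.21 ± 0.13 in LEC, and in BEC it fell by 1.32 ± 0.13. For Plpp3 the change in LEC was 0.32 (adjusted p = 0.11), and in BEC it rose by 1.03 ± 0.15.

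The ceramidases, which release sphingosine from ceramide, were split by gene. Acer2, the ceramidase of the Golgi, was lower in LEC, with a difference of -1.54 ± 0.10 (limma adjusted p = 9.8e-11), while Acer3, another alkaline ceramidase, was higher at E14.5 by 1.20 ± 0.17 (adjusted p = 2.4e-05). Acer3 read 7.17, 7.24 and 6.82 in LEC at E14.5, against 5.88, 5.77 and 5.99 in BEC. Its means at E16.5 were 8.01 in LEC and 6.47 in BEC, and at E18.5 they were 7.98 in LEC and 6.38 in BEC. Acer2 rose by 0.95 ± 0.17 in LEC and by 1.96 ± 0.17 in BEC from E14.5 to E18.5, and the changes differed by -1.01 ± 0.24 (adjusted p = 0.01). Sgpp1, the S1P phosphatase of the endoplasmic reticulum, read 7.82, 8.11 and 7.94 in LEC at E18.5, against 6.53, 6.44 and 6.51 at E14.5. It rose in LEC by 1.47 ± 0.16 (adjusted p = 4.9e-07), in BEC the change was 0.24 (adjusted p = 0.27), and the changes differed by 1.22 ± 0.22 (adjusted p = 0.0011). Like Sgpl1, Sgpp1 removes S1P, and at E18.5 it was higher in LEC by 1.16 ± 0.16 (adjusted p = 8.5e-06).

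**Figure D4:**
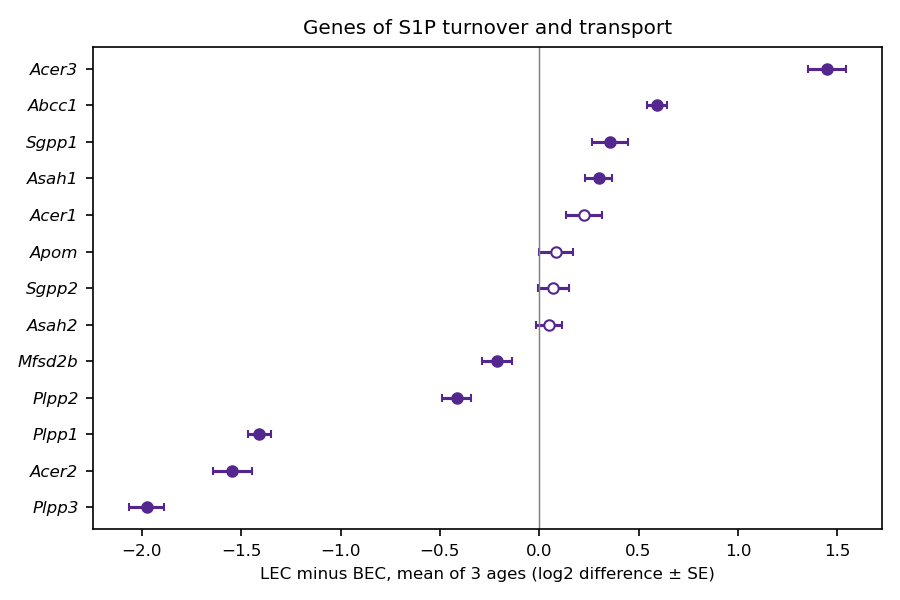
LEC minus BEC difference (log2, mean of the 3 ages, horizontal axis) of the 13 genes of S1P turnover and transport, with limma SE as bars; filled points passed the test and open points did not. Acer3 lies highest at 1.45, and Plpp1, Acer2 and Plpp3 lie lowest, between -1.98 and -1.41.

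Of 22 measured genes of ceramide and sphingolipid synthesis, 11 were higher in LEC, 3 were lower and 8 were not called. Ugcg, the glucosylceramide synthase, read 10.13, 10.65 and 10.37 in LEC at E18.5, against 8.66, 8.51 and 8.41 in BEC, a difference of 1.86 ± 0.12 (limma adjusted p = 4.9e-10). Of 4 measured genes of LPA production, 2 were higher in LEC and none was lower (2 at E16.5, none at E14.5 or E18.5), and Enpp2, which encodes autotaxin, was not among them because it had no transcript cluster with its symbol alone.

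Downstream of the receptors, Tiam1, an exchange factor that activates RAC, was higher in LEC by 1.61 ± 0.11 (limma adjusted p = 3.6e-10). It read 7.76, 7.41 and 7.38 in LEC at E18.5, against 5.79, 5.14 and 4.83 in BEC. Gnai1, a Gi alpha subunit, was higher by 1.58 ± 0.08 (adjusted p = 1.7e-12), and read 11.19, 10.56 and 10.65 in LEC at E18.5, against 8.87, 8.75 and 8.73 in BEC. The groups did not overlap for either gene, and the age change in LEC exceeded that in BEC by 1.47 ± 0.27 for Tiam1 (adjusted p = 0.0013) and by 1.13 ± 0.18 for Gnai1 (adjusted p = 0.00047).

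Of 5 measured regulators of S1PR1, 3 were higher in LEC and 1 was lower. Cd69, whose protein binds S1PR1 and takes it from the surface of lymphocytes, was higher in LEC by 3.21 ± 0.19 (limma adjusted p = 5.5e-11). It read 9.48, 8.43 and 8.36 in LEC at E18.5, against 5.45, 4.69 and 4.56 in BEC, with no overlap and with BEC replicate 3 below 4.57. Cd69 is also a gene of activated leukocytes, and the macrophage, mast cell, and lymphocyte and leukocyte sums given above were higher in LEC at the same ages; their part was not tested. Stat3, known to induce S1pr1 in tumour and immune cells, was lower in LEC, with a difference of -0.46 ± 0.06 (adjusted p = 1.3e-06) and from E14.5 to E18.5 rose by 0.79 in LEC and 0.99 in BEC.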

How the data were processed

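RNA of LEC and BEC was measured on 18 arrays, 3 in each of 6 groups set by the labels. The authors deposited log2 expression values. The tools are oligo (version 1.54.1) and RMA according to what the labels list, per the submitters' processing notes, and it is not stated whether all arrays were normalized together. The table has 35556 transcript clusters, of which the platform annotation gives 1 gene symbol to 21789 and several to 1621, and does not list 12146. The reference gene table held the Entrez identifiers of 21698 and changed 0 symbols. Where a gene had several clusters (999 genes) the brightest stood for it, and all 19938 genes were tested.

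All 18 arrays entered 1 fit of group means (limma 3.58.1, R 4.3.3, eBayes without trend, 12 residual and 6.11 prior degrees of freedom), with two-sided p adjusted by Benjamini-Hochberg over all genes of each of 11 contrasts. Errors are limma standard errors unless stated. The script was tested on simulated data. The members and lists were chosen with earlier results of these data known. The counts of 1 list are not reported here. Pathway genes outside the members were named where called with a difference of at least 1, at most 6 per contrast, the largest first; Stat3 came from the 3 genes most correlated with each member, which are given without a p. Array values of other genes were read at ages where they were named. Promoter windows are the 250 bases before each RefSeq start (GRCm38.p6). Alternatives were a replicate block, arrays shifted to 1 median, eBayes with trend and robust, the mean of all clusters of a gene, array weights, only genes above 4.57, only the groups of a contrast, no E18.5 arrays, and each array left out.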

Additional observations from a re-analysis of the deposited data

Results flagged for a closer look

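The change from E14.5 to E18.5 differed between LEC and BEC for S1pr3, by -2.65 (interaction term of the limma fit, adjusted p = 2.2e-08). S1pr3 was at a mean of 5.19 ± 0.12 at E18.5 and 6.06 ± 0.10 at E14.5 in LEC, and at 7.23 ± 0.08 at E18.5 and 5.45 ± 0.14 at E14.5 in BEC (SD, n = 3 each). The change also differed for Sgpl1, by 0.94 (adjusted p = 0.00085), with 9.31 ± 0.16 at E18.5 and 8.41 ± 0.11 at E14.5 in LEC, and 7.97 ± 0.23 at E18.5 and 8.02 ± 0.10 at E14.5 in BEC. Leaving out each array in turn gave -2.72 to -2.57 for S1pr3 and 0.81 to 1.03 for Sgpl1. Groups of 3 arrays were not tested for single arrays standing apart.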

How the results depend on the processing

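Of 2790 member values recomputed under 26 alternatives, 2713 kept their side of the threshold, and those called also kept their direction. This count includes values that could hardly change. Each member has 1 transcript cluster, so the mean of all clusters left its values as they were. A left-out array changes a difference only where its group enters it, and otherwise only the error. Keeping only genes above 4.57, and eBayes with trend and robust, likewise left the differences unchanged. Values not called could change sign, as the mean LEC minus BEC difference of Spns2 did (-0.04 to 0.06 with each array left out). A further 49 values lost and 27 gained a call. The 1 called value that reversed was the mean LEC minus BEC difference of S1pr3, which was 0.14 without the E18.5 arrays. The count of members called from E14.5 to E16.5 in LEC, 3 as reported, was 0 to 4 when each array was left out, and 0 without LEC E16.5 replicate 3. With a replicate block, Sgpl1 at E14.5 (adjusted p = 0.076) and Lpar1 at E14.5 (adjusted p = 0.053) and E16.5 (adjusted p = 0.064) were not called, and no other member call changed; over all genes 7175 were called between LEC and BEC, against 7404. Same-numbered LEC and BEC arrays deviated from their group means with correlations of -0.11 to 0.13, and 9 of 18 arrays correlated best with their own number. No chance level was computed for these values, so they cannot decide whether the numbers pair samples. The numbers were not used to pair samples in the main fit because no label ties them to litters. Counts over all genes moved by over 1.5 times in 3 comparisons: LEC minus BEC at E18.5 (6071 genes, 3707 in a fit to those groups alone), E14.5 to E16.5 in LEC (2749, 4544 with array weights, 1768 without LEC E14.5 replicate 3 and 1758 without LEC E16.5 replicate 1), and the same step in BEC (1945, 4022 with array weights, 3318 without the E18.5 arrays, 1155, 966 and 1154 without BEC E14.5 replicate 1, 2 or 3, and 850 without BEC E16.5 replicate 2). The cause was not tested. Besides those in the report, further calls were gained without leaving out single arrays. The LEC step of Sgpl1 from E14.5 to E16.5 (0.32, adjusted p = 0.074 as reported) reached 0.013 to 0.046 under several alternatives, among them no E18.5 arrays (0.017). Among genes above 4.57 only, S1pr3 at E16.5 (adjusted p = 0.042) and the later LEC step of S1pr2 (adjusted p = 0.049) were called. So was the difference of the Sphk1 age changes (adjusted p = 0.032, and 0.021 in a fit to those groups alone). Spns2 at E14.5 was called with array weights (adjusted p = 0.014) and without the E18.5 arrays (adjusted p = 0.022). Signal near background limits Gpr34 on all arrays, Gpr174 and P2ry10 on all BEC arrays and some LEC arrays, Lpar2 on some BEC arrays, and Sphk1 and Cd69 on 1 BEC array each.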
